A study of Homo sapiens with 6 samples.

Results

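The RNA-seq library of METTL3 hairpin 2 was compared with the RNA-seq library of METTL3 hairpin 1. Both came from TE-10, an established human line of esophageal squamous carcinoma, after stable short hairpin knockdown of METTL3. Genes were compared where the deposited value was at least 1 in either hairpin library, which held for 12281 of the 18249 genes in the table, and the other 5968 were under 1 in both. The difference of a gene is log2(hairpin 2 value + 1) minus log2(hairpin 1 value + 1). A gene is called 2-fold higher or lower where that difference is at least 1 or at most -1, a scale that understates the change of low genes. A library from TE-10 cells with normal METTL3 is printed as the control and does not enter the difference. The series also holds m6A immunoprecipitation from TE-10 with normal METTL3 (1 input and 2 immunoprecipitated libraries), used here as a list of peaks.

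Each condition has 1 RNA-seq library, so there is no spread between replicates and no difference was tested. The labels do not say whether a hairpin line is a clone or a pool, whether the libraries are separate cultures, or whether the control carried a hairpin of its own. Hairpin, line, culture and library therefore cannot be told apart. The unit of the deposited values is not stated, so values are compared between libraries and not between genes. In bulk RNA, fewer cells of a type and less RNA per cell cannot be told apart.

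METTL3 is the catalytic subunit of the complex that places N6-methyladenosine (m6A) on messenger RNA, a mark that influences decay, splicing and translation. A short hairpin RNA is processed into a strand that guides cleavage of its matching messenger. Separate hairpins against a gene share that target, while other pairings of each strand and the history of each line are its own. Squamous carcinoma lines carry basal keratins, desmosomal cadherins and the factors TP63 and SOX2. CDKN2A, whose p16INK4a and p14ARF products restrain the cyclin D kinases and MDM2, is often deleted or silenced in such tumours.

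METTL3 was lower in hairpin 2 than in hairpin 1. It was at 20.81 in the control, 8.35 in hairpin 1 and 4.99 in hairpin 2, a difference of -0.64. None of the 9 compared writer genes reached 2-fold in either direction, and their median difference was 0.10 (-0.02 over members at 5 or more in either hairpin library). METTL14, the RNA-binding partner of METTL3, was at 6.02, 5.3 and 5.77 in control, hairpin 1 and hairpin 2. WTAP, the adaptor that holds the complex in nuclear speckles, was at 40.76, 48.82 and 40.25. RBM15, an RNA-binding recruiter of the complex, had the largest positive difference of the list at 0.43, from 1.63 to 2.55.

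The depth of the 3 libraries is unknown. The deposited values summed to 608291 in the control, 617840 in hairpin 1 and 627152 in hairpin 2, which is not a measure of depth. Genes listed at 0 numbered 1690, 1750 and 1223, so the hairpin 2 library had the fewest. The squamous identity of TE-10 was present in each library, with 12 of 13 squamous markers compared and IVL, a cornified envelope precursor, at 0.04 in all 3.

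More genes were higher in hairpin 2 than lower. Of the 12281 genes, 497 were at least 2-fold higher (4.05%) and 149 at least 2-fold lower (1.21%). With quantile scaling the split was 381 higher and 194 lower. At 4-fold the counts were 91 and 9, and at 8-fold 17 and 0. At any size 6545 genes were higher and 5706 lower, with a median difference of 0.03. The SD of the differences across genes was 0.51, against 0.28 for hairpin 1 minus control. Genes entered on their hairpin values and not on the control, which can widen the first SD relative to the second. The SDs are therefore not like for like. PLAC1, at 1.55 in hairpin 1 and 4.1 in hairpin 2, lay just inside the upper limit, and PLPP3, at 2.46 and 5.91, just outside it. MMP9, at 4.96 and 1.98, lay just inside the lower limit, and DUSP2, at 3.32 and 1.17, just outside it.

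**Figure D1:**
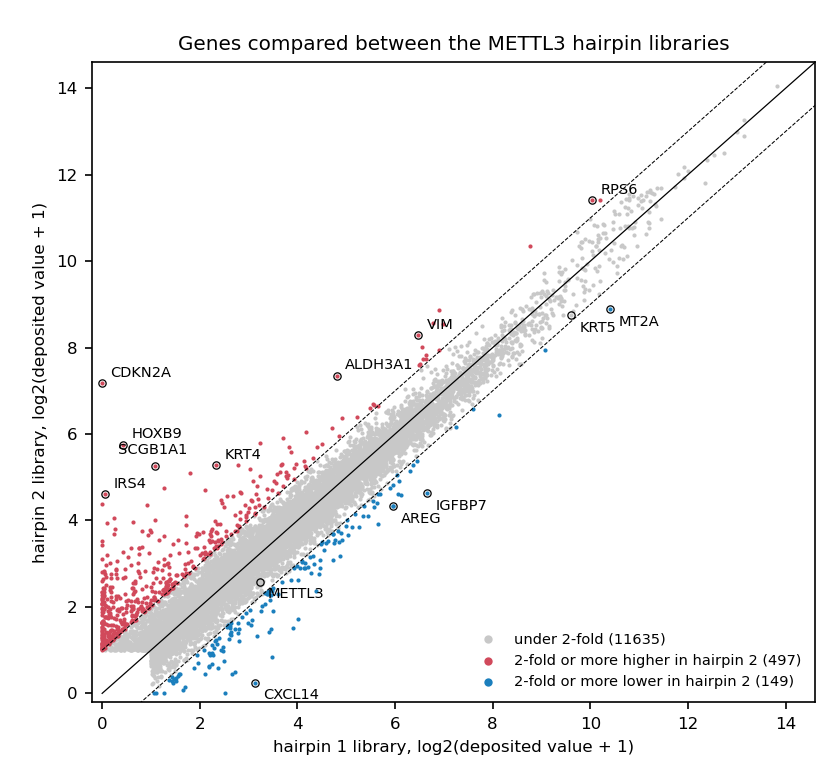
Each point is 1 of the 12281 compared genes, with log2(deposited value + 1) in the hairpin 1 library on the x axis and in the hairpin 2 library on the y axis. The solid line marks equality and the dashed lines a 2-fold difference, with 497 genes in red above and 149 in blue below. The red genes are densest at the left edge, where hairpin 1 is near 0, and circled genes are named.

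The higher genes were mostly low in TE-10. Of the 728 compared genes with a control value up to 1, 271 were 2-fold higher (37.2%) and 13 lower. The share higher was 3.88% of 3347 genes over 1 to 5, and 1.38% of 4275 genes over 5 to 20. Among the 3035 genes over 20 to 100, 25 were higher and 37 lower. A gene near 0 in the control enters the comparison only if a hairpin library reached 1, so the lowest bin is selected toward higher genes.

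For most called genes the control lay nearer hairpin 1. This held for 456 of the 497 higher genes (91.8%), 117 of the 149 lower genes (78.5%) and 6873 of the 11635 others (59.1%). Among the 497 higher genes, 357 were 2-fold from the control in hairpin 2 alone, 17 in hairpin 1 alone, 3 in both and 120 in neither. Among the 149 lower genes these counts were 66, 12, 1 and 70. The hairpin differences share their libraries with these control differences, so the counts are a description.

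CDKN2A had the largest difference. It was at 0.04 in the control, listed at 0 in hairpin 1 and at 144.68 in hairpin 2, so only the hairpin 2 library held it at more than a trace. HOXB9, a posterior homeobox factor, was at 0.03, 0.35 and 53.12 in control, hairpin 1 and hairpin 2, a difference of 5.33. IRS4, an adaptor of insulin and growth factor receptors, was at 0.05, 0.04 and 23.56, a difference of 4.56. VIM, the intermediate filament of mesenchymal cells, was well above 0 in every library, at 87.02, 88.05 and 311.17, a difference of 1.81. In all 4 genes the control and hairpin 1 were close together and hairpin 2 stood apart.

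The start regions of CDKN2A and of its neighbour MTAP, an enzyme of methionine salvage, are shown because both genes were near 0 in 2 libraries and present in the other. Each is 250 bases before to 50 after a start in RefSeq GRCh38.p14, written along the gene's strand with CG dinucleotides in capitals. CDKN2A has 2 starts, upstream at chr9:21995275-21995574 and downstream at chr9:21974808-21975107, both on the minus strand. MTAP lies at chr9:21802386-21802685 on the plus strand.
CDKN2A upstream start: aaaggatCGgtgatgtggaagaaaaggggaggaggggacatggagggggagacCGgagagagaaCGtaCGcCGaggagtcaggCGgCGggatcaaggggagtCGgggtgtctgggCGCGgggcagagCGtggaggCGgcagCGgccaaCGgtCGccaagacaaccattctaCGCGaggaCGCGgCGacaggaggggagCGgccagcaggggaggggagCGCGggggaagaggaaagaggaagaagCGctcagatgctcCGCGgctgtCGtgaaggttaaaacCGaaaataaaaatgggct
CDKN2A downstream start: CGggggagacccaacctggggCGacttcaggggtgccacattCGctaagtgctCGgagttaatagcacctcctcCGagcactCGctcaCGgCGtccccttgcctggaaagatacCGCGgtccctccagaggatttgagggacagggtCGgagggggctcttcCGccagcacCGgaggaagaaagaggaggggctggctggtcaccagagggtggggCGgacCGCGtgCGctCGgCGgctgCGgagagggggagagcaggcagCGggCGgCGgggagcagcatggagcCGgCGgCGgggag
MTAP start: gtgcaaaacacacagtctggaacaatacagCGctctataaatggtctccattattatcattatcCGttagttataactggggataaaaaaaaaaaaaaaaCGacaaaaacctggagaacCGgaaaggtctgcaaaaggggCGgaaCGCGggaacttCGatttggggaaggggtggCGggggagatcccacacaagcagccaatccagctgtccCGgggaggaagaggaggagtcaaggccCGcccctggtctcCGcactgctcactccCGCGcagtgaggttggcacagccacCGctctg
These windows hold 28, 26 and 15 CG. Of the 35116 windows in the table, 26.2%, 30.1% and 48.9% hold at least as many, a count that is the same on both strands because CG reads alike on each. The deposited gene values do not separate the CDKN2A starts, and no methylation of DNA was measured.

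The genes on either side of CDKN2A on chromosome 9 were near 0 in the same 2 libraries. MTAP was at 0.07 in the control, 0.03 in hairpin 1 and 3.31 in hairpin 2. CDKN2B, the p15 inhibitor of the cyclin D kinases, was listed at 0 in the control and in hairpin 1 and was at 1.1 in hairpin 2. Chosen after their values were seen, KLHL9, an adaptor of a ubiquitin ligase, was at 0.06, 0.01 and 2.04, and ELAVL2, a neuronal RNA-binding protein, at 0, 0 and 1.23. IFNA21 was listed at 0 in all 3. Farther out, in genes also chosen after their values were seen, the pattern was mixed. FOCAD was at 4.13, 3.53 and 5.37, and TUSC1 at 12.02, 15.12 and 9.51. PLIN2, a lipid droplet protein beyond FOCAD, was again near 0 in the control and hairpin 1, at 0.06, 0.14 and 3.43. HAUS6, of the augmin complex, RPS6 and MLLT3 had differences of 1.24, 1.37 and 0.94. HACD4 was at 0.09, 0.1 and 0.11. Between KLHL9 and ELAVL2 no gene was above 0.1 in the control or in hairpin 1.

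**Figure D2:**
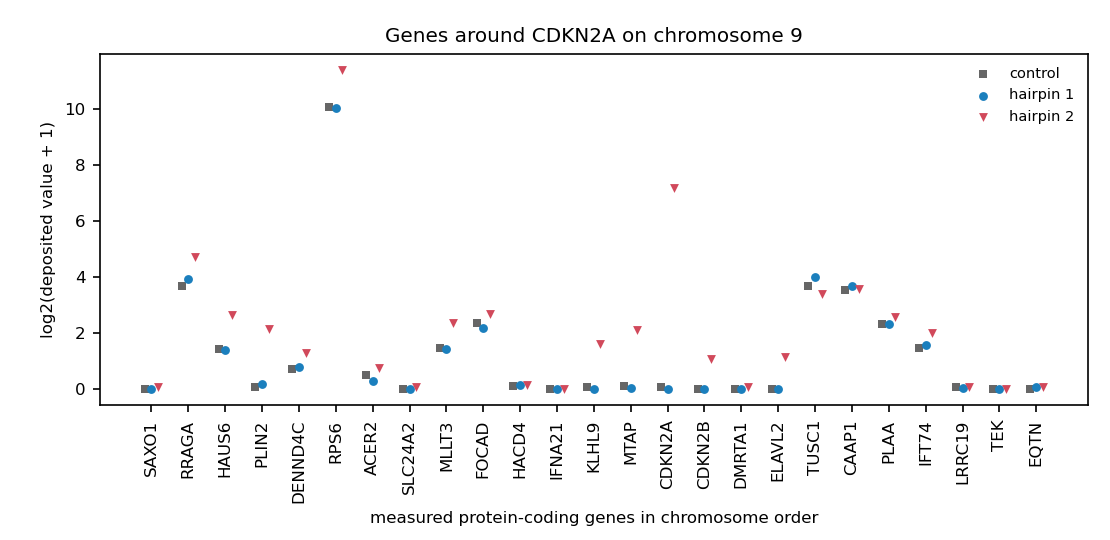
The x axis lists measured protein-coding genes in their order on chromosome 9 around CDKN2A, and the y axis gives log2(deposited value + 1) in the control (squares), hairpin 1 (circles) and hairpin 2 (triangles), 1 library each. From KLHL9 to ELAVL2 the control and hairpin 1 lie at or near 0, while hairpin 2 reaches 144.68 at CDKN2A; TUSC1 on one side and FOCAD on the other are above 0 in all 3.

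Genes beside IRS4 and VIM differed less than these genes did. COL4A5 and COL4A6, collagen chains beside IRS4 on chromosome X, had differences of -0.22 and 0.10. TRDMT1, a tRNA methyltransferase beside VIM on chromosome 10, was at 2.17, 1.91 and 2.83, a difference of 0.40, and ST8SIA6, a sialyltransferase near it, had one of 0.32. The run of 25 compared genes from PRPF18 to DNAJC1, which spans VIM, had a median of 0.54 with 24 genes higher at any size. This median was the second highest of the non-overlapping runs described with the chromosomes. The run's median for hairpin 1 minus control was -0.35, so hairpin 1 itself lay below the control there, unlike in VIM. The HOXB9 neighbours HOXB8 and HOXB6 had differences of 2.90 and 3.33.

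Counted over all 18249 genes, 29 were at 5 or more in hairpin 2 and under 0.5 in both other libraries (0.159%). The same count was 0 for hairpin 1 alone and 0 for the control alone. They lay on 14 chromosomes, with 4 on X and 3 each on 4, 5 and 9. After CDKN2A, HOXB9 and IRS4 came GAGE13, a testis antigen listed at 0 in the control and hairpin 1 and at 19.75 in hairpin 2. Its reads may be shared with near-identical GAGE copies, which were high in every library. GAGE1 was at 859.24, 939.17 and 547.74 in control, hairpin 1 and hairpin 2, and GAGE2A at 420.2, 497.5 and 274.72. GAGE12G, chosen after its values were seen, was at 126.25, 68.19 and 97.57, so higher in hairpin 2 than in hairpin 1. NRN1, a neurite growth factor, was at 0.12, 0.18 and 15.64, and GSTM2, a glutathione transferase with close paralogs, at 0.04, 0.07 and 14.46.

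Among the other genes of the 29, CDX2, the intestinal homeobox factor, was at 0.07 in the control, listed at 0 in hairpin 1 and at 6.01 in hairpin 2. EN2, a midbrain and hindbrain homeobox factor, was at 0.2, 0.39 and 6.33, LEF1, a nuclear partner of beta-catenin, at 0.07, 0.14 and 5.77, and PLAGL1, an imprinted zinc finger gene, at 0.03, 0.03 and 5.97. SNCB, beta-synuclein, reached 5.79 in hairpin 2, DPYSL5 5.4 and LINGO1 5.43. SLIT2, an axon guidance ligand, was at 6.09 and the adhesion proteins JAM3 and CADM1 at 5.49 and 5.26. Further members were PHYHD1 at 12.87, CITED1 at 11.85, PPP1R14A at 8.27, ENHO at 7.91, RAMP1 at 7.65, GPX3 at 7.36, MGARP at 7.14, HOXB8 at 6.84, HES5 at 6.2, NKD2 at 5.34 and SMIM10 at 5.03.

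Outside these 29, the largest positive differences were in SCGB1A1, RPSAP58 and QPRT. SCGB1A1, the secretoglobin of airway club cells, was at 3.96 in the control, 1.12 in hairpin 1 and 37.11 in hairpin 2, a difference of 4.17. QPRT, an enzyme of NAD synthesis, was at 1.34, 0.88 and 19.38. RPSAP58, a ribosomal pseudogene whose reads may come from copies of its parent, was at 1.06, 1.4 and 26.03.

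In each of the 12 genes with the largest negative differences the control lay between hairpin 2 and hairpin 1. These genes were picked for the widest gap between the hairpins, which favours a control between them, so this is a description. CXCL14, a chemokine of epithelia, was at 0.99 in the control, 7.73 in hairpin 1 and 0.19 in hairpin 2, a difference of -2.88. TFPI2, a protease inhibitor of the matrix, was at 2.44, 10.1 and 0.8, and IGFBP7, a secreted binding protein of insulin-like growth factors, at 62.45, 100 and 23.75. PTN, a heparin-binding growth factor, was at 14.07, 19.86 and 4.14, CDH13, a cadherin without a cytoplasmic tail, at 3.97, 9.67 and 1.69, and STC1, a secreted glycoprotein, at 6.63, 10.01 and 1.79. CTCFL, the germline paralog of CTCF, was at 4.31, 8.03 and 1.51, and PNLDC1, a piRNA trimming enzyme, at 6.35, 15.19 and 2.29. SULT1E1, an estrogen sulfotransferase, was at 1.08, 5.61 and 0.4, and COX7B2 at 2.5, 5.36 and 0.37. MAGEA2B, at 8.96, 13.97 and 1.86, and HIST1H4K, at 2.49, 4.69 and listed at 0, have near-identical copies that could share reads.

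**Figure D3:**
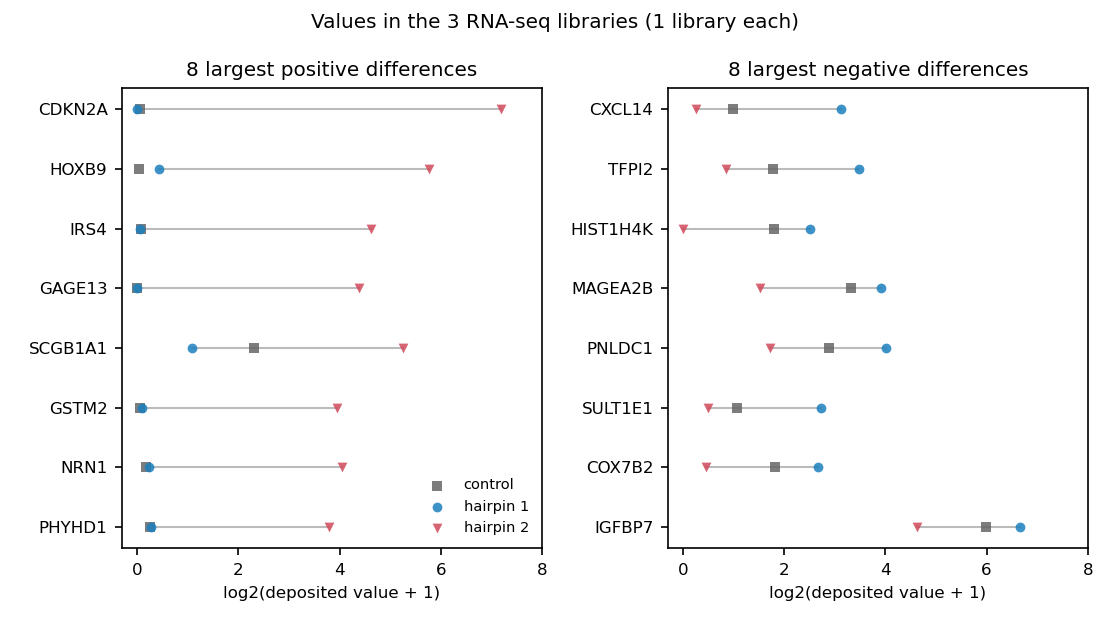
The 8 genes with the largest positive (left) and the 8 with the largest negative (right) differences, with log2(deposited value + 1) on the x axis for the control (square), hairpin 1 (circle) and hairpin 2 (triangle), 1 library each. On the left the control lies near hairpin 1 in most genes, with SCGB1A1 farthest from it, and on the right it lies between the hairpins in all 8.

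Gene lists were described by counts and medians, beside 4.05% and 1.21% of all genes and a median of 0.03. A gene under 1 in hairpin 1 entered only if hairpin 2 reached 1, so lists with many such genes are selected toward higher. Of the 497 higher genes 279 were under 1 in hairpin 1, and of the 149 lower genes 35 were under 1 in hairpin 2. Members named in lists of more than 12 compared genes, beyond the 2 highest and 3 most different, and members named at under 1 were chosen after their values were seen, whether past 2-fold or not.

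Of the homeobox clusters, HOXB stood highest in hairpin 2. HOX genes encode factors that set position along the body axis. Of 9 compared HOXB genes, 6 were 2-fold higher and 0 lower, with a median of 2.23. HOXB6 was at 0.12, 0.54 and 14.54 in control, hairpin 1 and hairpin 2. HOXB2, HOXB3 and HOXB5 were at 3.81, 4.41 and 3.84 in hairpin 2 and under 1 in both others. HOXB4, at 6.64, 5.71 and 5.65, and HOXB7, at 12.67, 20.26 and 18.27, were measured in every library and had differences of -0.01 and -0.14. HOXB13 was at 0.41, 0.99 and 2.87, a difference of 0.96. The 6 called genes were under 1 in hairpin 1 and entered only through hairpin 2, as did HOXB13. Only HOXB4 and HOXB7 were over 1 in hairpin 1, so the count and median of this cluster are selected toward higher.

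In HOXA, 4 of 11 were 2-fold higher and 0 lower, with a median of 0.48. HOXA5 was at 2.09, 4.51 and 20.08, and HOXA11 at 1.05, 1.51 and 6.91. HOXA6 and HOXA13 had differences of 1.13 and 1.04, and HOXA7 one of -0.70. In HOXC 1 of 8 was higher, HOXC8 at 0.57, 0.19 and 1.74, and in HOXD 0 of 7, with medians of 0.26 and 0.31. HOXA13 was under 2-fold with quantile scaling, at 0.93.

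Neuronal and neuroendocrine genes were higher in number as well. Of 34 measured, 23 were compared, and 13 of these were 2-fold higher and 0 lower, with a median of 1.04. The rest were under 1 in both hairpin libraries. Members near 0 in hairpin 1 entered only through hairpin 2, so this count and median are selected toward higher. TUBB2B, a neuronal beta-tubulin, was at 0.72, 1.4 and 11.38, and SYP, synaptophysin of synaptic vesicles, at 0.63, 1.17 and 6.34. STMN2, a tubulin-binding protein of axons, was listed at 0 in control and hairpin 1 and was at 2.84 in hairpin 2. The members with the highest listed values were STMN1, at 293.62, 329.4 and 325.22, and UCHL1, at 52.23, 47.14 and 82.33, with differences of -0.02 and 0.79. DCX, a defining gene of young neurons, was at 0.02, 0.01 and 0, and ELAVL4 at 0.02, 0.06 and 0.06. TUBB3, the neuronal tubulin also found in carcinoma lines, was at 45.1, 44.39 and 29.36. A shorter list of 7 neuronal markers, which holds TUBB3, STMN2 and SYP, had 2 of 5 compared genes 2-fold higher and 0 lower. Its median was 0.65, and it summed to 48.05, 47.3 and 40.81, mostly from TUBB3. MAP2, also in that list, was at 1.78, 1.22 and 0.94.

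A list of genes known from HEK293, an embryonic kidney line with a neuron-like profile, stood higher in hairpin 2. Of its 11 genes 9 were compared, and all 9 were 2-fold higher in hairpin 2. CDKN2A, HOXB9, IRS4 and VIM are among these 9, so the list is not independent of them. All but VIM and IGF2BP1 were under 1 in hairpin 1 and entered only because hairpin 2 reached 1. A gene at 0 in hairpin 1 that enters is 2-fold higher by rule, so the count of 9 is a description. The summed value of the list was 89.61 in the control, 92.42 in hairpin 1 and 556.6 in hairpin 2. CDKN2A, HOXB9, IRS4 and VIM alone summed to 87.14, 88.44 and 532.53, so the sum mostly repeats those 4 genes. Members of the list at 0 numbered 4, 5 and 0. NEFL, a neurofilament subunit, was at 0, 0.01 and 4.4, INA, alpha-internexin, at 0, 0.03 and 4.45, NEFM at 0, 0 and 1.91, and LIN28B, an RNA-binding repressor of let-7, at 0, 0 and 2.1. IGF2BP1, an oncofetal RNA-binding protein, was at 2.43, 3.94 and 10.42. NEFH was at 0.01 and PAX2 at 0.78 in hairpin 2. The part of other cells in the difference was not tested.

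The other marker lists differed less. Of 10 kidney lineage genes 5 were compared, and 1, SIX2 at 3.82, 3.14 and 8.47, was 2-fold higher; the list summed to 20.83, 23.31 and 35.4. PAX8, which marks renal epithelium, was at 4.11, 3.51 and 3.66. Of 9 fibroblast markers, COL1A1 alone was compared, at 3.34, 3.6 and 3.59, while DCN and LUM were at or near 0, and the list summed to 3.67, 3.99 and 3.95. No leukocyte or endothelial marker reached 1 in a hairpin library, with sums of 1.25, 1.3 and 1.89 for leukocytes and 1.21, 0.37 and 0.35 for endothelium.

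Squamous markers were lower in hairpin 2. Of 12 compared, 11 were lower at any size, 1 by 2-fold, with a median of -0.62, and the list summed to 4153 in the control, 3897 in hairpin 1 and 2496 in hairpin 2. The 2-fold gene was DSG3, a desmosomal cadherin, at 18.37, 18.18 and 7.93. KRT5, a basal keratin, was at 633.07, 779.09 and 429.18, KRT14, its partner, at 449.63, 357.39 and 210.86, and KRT17 at 1171.05, 1177.9 and 749.17. TP63 was at 31.89, 23.54 and 19.5 and SOX2 at 160.64, 141.05 and 114.16. PI3, an elastase inhibitor, was the exception, at 106.17 in hairpin 1 and 108.78 in hairpin 2 after 242.85 in the control. The 6 simple epithelium markers held 0 called genes, with a median of -0.32 and sums of 1488, 1512 and 1449.

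The wider basal squamous list had 3 of 24 genes 2-fold lower and 1 higher, with a median of -0.58. COL17A1, the hemidesmosomal collagen, was at 84.86, 61.16 and 27.3, so hairpin 1 was already below the control. EGFR, described with its pathway, was also among the lower genes. PDPN, podoplanin, was the higher gene, at 0.93, 0.76 and 3.36.

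Squamous differentiation genes went both ways, 5 of 32 being 2-fold higher and 4 lower, with a median of -0.33. KRT4 and KRT13, the keratin pair of suprabasal esophageal epithelium, were higher, at 4.81, 4.06 and 37.99 for KRT4 and 7.35, 7.55 and 29.21 for KRT13. KRT16, a keratin of activated epidermis, was lower, at 15.61, 15.65 and 6.52, as were SPRR2D and SPRR2E, cornified envelope proteins with close paralogs. SERPINB3 and SERPINB4, near-identical protease inhibitors, were called higher with hairpin 1 below the control, at 21.79, 7.06 and 18.54 for SERPINB3.

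Epidermal growth factor receptor genes had the highest count of 2-fold lower members among the lists. Ligands bind EGFR and signal through RAS and ERK, and the ERK targets include phosphatases and Sprouty proteins that restrain the pathway. Of 25 compared, 10 were 2-fold lower and 0 higher, 23 were lower at any size, and the median was -0.64, against 0.04 for hairpin 1 minus control. Of the ligands, AREG was at 58.25, 60.97 and 19.24 in control, hairpin 1 and hairpin 2, EPGN at 4.4, 4.15 and 0.49, and BTC at 3.16, 7.29 and 1.97. TGFA and HBEGF had differences of -0.57 and -0.64, under the limit.

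The receptor EGFR was at 20.87, 14.32 and 6.42, a difference of -1.05, while ERBB2, a receptor without a known ligand, was at 20.98, 18.88 and 19.75. Of the feedback genes, DUSP6, a phosphatase of ERK, was at 9.97, 10.27 and 2.77, DUSP4 at 4.32, 5.25 and 1.66, and SPRY4 at 3.82, 4.41 and 0.99. SPRY1 had a difference of -0.04. ETV4 and ETV5, factors induced by ERK, were at 35.58, 31.7 and 11.76 and at 19.5, 16.74 and 6.45. PHLDA1 was at 63.22, 61.23 and 19.22. In DUSP6, SPRY4, AREG and PHLDA1 the control was close to hairpin 1.

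In the Notch list the called members were effectors. Notch receptors are cleaved on ligand binding and switch on HES and HEY repressors. Of 20 compared, 5 were 2-fold higher and 0 lower, with a median of 0.20, and all 5 were effectors. The repressor HES4 was at 33.2, 29.26 and 81.75 and its relative HEY1 at 7.57, 5.37 and 22.73. HES5, low in both other libraries, went from 0.47 in the control and 0.22 in hairpin 1 to 6.2, and HEY2 from 0.13 and 0.44 to 3.46. NRARP, which limits Notch signalling, was at 12.17, 8.16 and 21.41. HES1, the effector with the highest control value, was at 48.44, 40.66 and 48.02. The receptors NOTCH1, NOTCH2 and NOTCH3 had differences of -0.21, 0.11 and 0.16, and the ligand JAG1, at 10.97, 9.8 and 6.06, one of -0.61.

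NRF2 targets and redox genes held 8 of 38 members 2-fold higher and 0 lower, with a median of 0.32. NRF2 drives detoxifying enzymes. ALDH3A1, an aldehyde dehydrogenase, was at 30.53, 27.04 and 162.31, and GPX2, a glutathione peroxidase of epithelia, at 203.05, 118.14 and 468.93. HMOX1, heme oxygenase, was at 2.29, 1.53 and 7.08, and GSTA4 at 9.94, 4.43 and 21.08. AKR1C1 and AKR1C2, near-identical reductases, were at 42.89, 12.12 and 58.67 and at 25, 7.15 and 35.42, so there hairpin 1 was the library farther from the control.

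Cell cycle lists showed few called genes. None of 33 G2/M genes was called, with a median of 0.02 that fell just under 0 with equal sums, and 1 of 40 G1/S genes was, CCNE1, cyclin E, at 13.74, 22.37 and 8.99. Among 22 CDK inhibitor and RB pathway genes, 3 were 2-fold higher, CDKN2A, CDKN2B and CCND2, and 1 lower, CCNE1 again, with a median of -0.03. CCND2, a D-type cyclin, was at 0.01, 0.02 and 3.75, and CDKN2B was under 2-fold with quantile scaling, at 0.94. CCND1, the D cyclin with the highest value, was at 245.47, 230.8 and 168.74. Of 30 p53 targets 4 were higher and 0 lower, with a median of 0.34: SESN2, a stress-induced regulator of mTOR, was at 6.26, 4.63 and 19.02, BBC3 at 2.99, 2.4 and 8.63, CCNG1 at 53.77, 44.07 and 96.47, and EDA2R at 0.05, 0.03 and 1.82.

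The NF-kB and cytokine list had 6 of 29 members 2-fold lower and 2 higher, with a median of -0.40. CXCL1, a neutrophil chemokine, was at 646.86, 536.9 and 247.12, under 2-fold with quantile scaling at -0.98, and CCL2 at 1.54, 2.16 and 0.06. IL7R, a cytokine receptor, was at 10.75, 8.59 and 2.74. The 2 higher genes, CXCL6 at 130.38, 36.22 and 83.55 and TNFSF10 at 15.45, 5.62 and 16.39, had hairpin 1 below both other libraries. Of 33 interferon-stimulated genes 25 were lower at any size, with a median of -0.19 and sums of 3098, 2655 and 2059. The 1 called gene was higher, IFITM2 at 17.5, 16.71 and 37.05. OASL, at 5.25, 7.67 and 3.42, and IFIT3, at 3.56, 4.62 and 1.97, had differences of -0.97 and -0.92 and were 2-fold lower with quantile scaling, at -1.09 and -1.07.

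All 4 compared metallothioneins were lower in hairpin 2 at any size, with a median of -1.25, and 2 of them by 2-fold. MT2A, which binds zinc and copper, was at 966.27, 1360.43 and 472.22, and MT1E at 147.83, 279.23 and 85.29, so in both hairpin 1 was above the control. Reads of this family may be shared. Of 18 compared genes in a list of MAGE and other testis antigens, which does not hold GAGE13, 14 were lower at any size, 3 of them by 2-fold, 0 were 2-fold higher, and the median was -0.74: MAGEA3 was at 51.79, 78.54 and 34.55, MAGEA6 at 46.84, 66.61 and 29.25, and MAGEA10 at 16.44, 25.84 and 10.24.

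Matrix genes again went both ways. COL6A1 and COL6A2, chains of collagen VI, were at 0.58, 0.68 and 8.39 and at 0.45, 0.51 and 3.39. MMP2, a gelatinase, was at 36.08, 49.29 and 14.03, and CDH2, N-cadherin, at 14.24, 18.28 and 5.93. The mesenchymal and matrix list held 3 of 30 genes 2-fold higher and 2 lower, with a median of -0.41, so VIM and CDH2, both markers of mesenchymal cells, had opposite directions.

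Cytosolic ribosomal protein genes were slightly higher. Of 86, 70 were higher at any size and 2 by 2-fold, with a median of 0.34, while the 78 mitochondrial ribosomal genes had a median of -0.01 (0.02 with quantile scaling) and 0 called. RPS6, a small subunit protein on chromosome 9, was at 1084.51, 1053.28 and 2727.33. RPS4X, on chromosome X, was at 1355.02, 1180.59 and 2714.09, and under 2-fold with quantile scaling at 0.89.

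**Figure D4:**
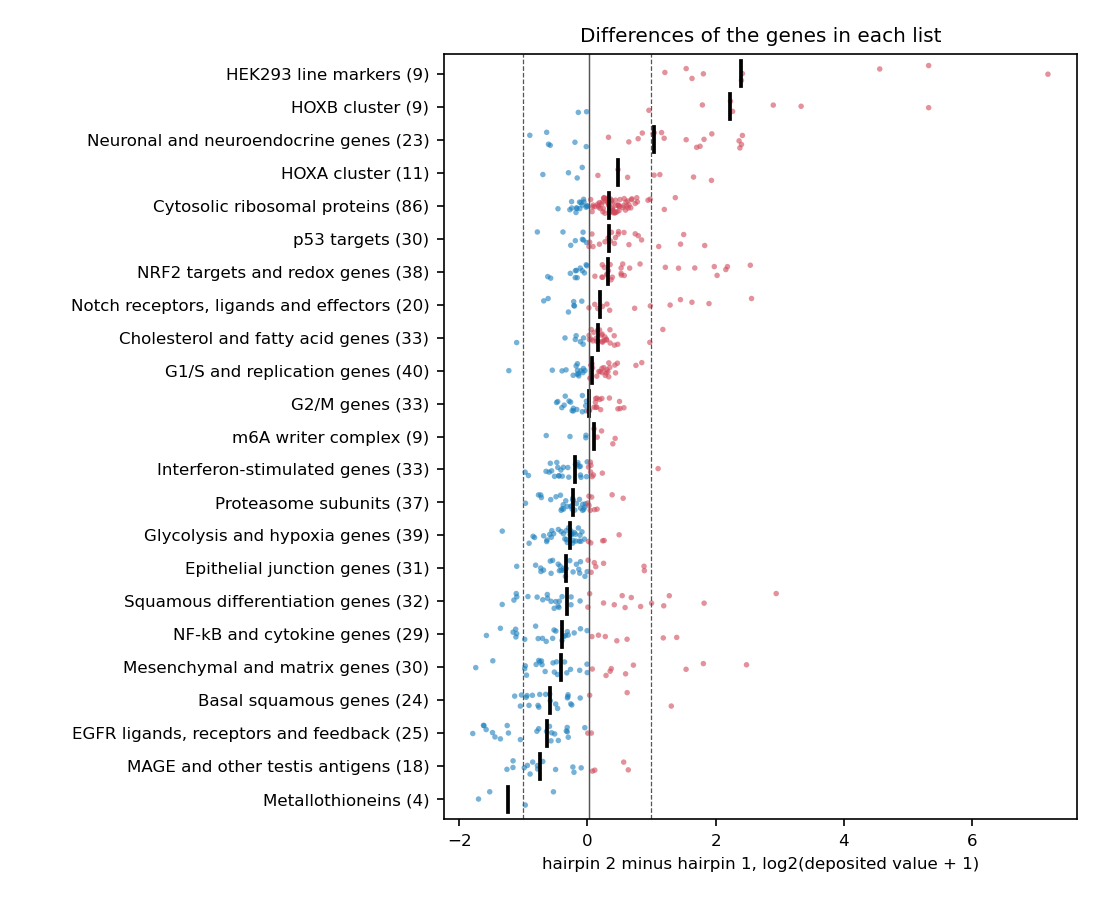
Each point is a compared gene of the list named on the y axis (number of genes in brackets), at its hairpin 2 minus hairpin 1 difference on the log2(deposited value + 1) scale, and the bar is the list's median. The solid line is the median of all genes, 0.03, and the dashed lines mark 2-fold; the HOXB median is 2.23 and the EGFR median -0.64.

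By chromosome, X and 21 held the highest shares of higher genes. On chromosome 21, 12 of 110 genes were 2-fold higher (10.9%) and 0 lower, with a median of 0.34. At any size 83 of 110 were higher. The 12 include COL6A1 and COL6A2, which were under 1 in hairpin 1 and entered only through hairpin 2. Near-identical copies that could share reads were not looked for among the 12. On X, 42 of 432 were higher (9.72%) and 8 lower, with a median of 0.19. Over the 12159 genes with a chromosome the shares were 4.05% and 1.23%. The lowest chromosome median was -0.14, on chromosome 20.

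In runs of 25 neighbouring compared genes, medians reached from -0.50 to 0.55 with an SD of 0.17 over 11607 overlapping runs. The SD was 0.09 for hairpin 1 minus control, over the same genes, which entered on their hairpin values and not on the control. The highest run, FAM89A to ERO1B on chromosome 1, had 23 of 25 genes higher. The run LRRC75A to EVPLL on chromosome 17 had 0 of 25 higher and a median of -0.48, and the run TMEM107 to CDRT4 on the same chromosome 22 of 25 and 0.54. Copy number was not measured.

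**Figure D5:**
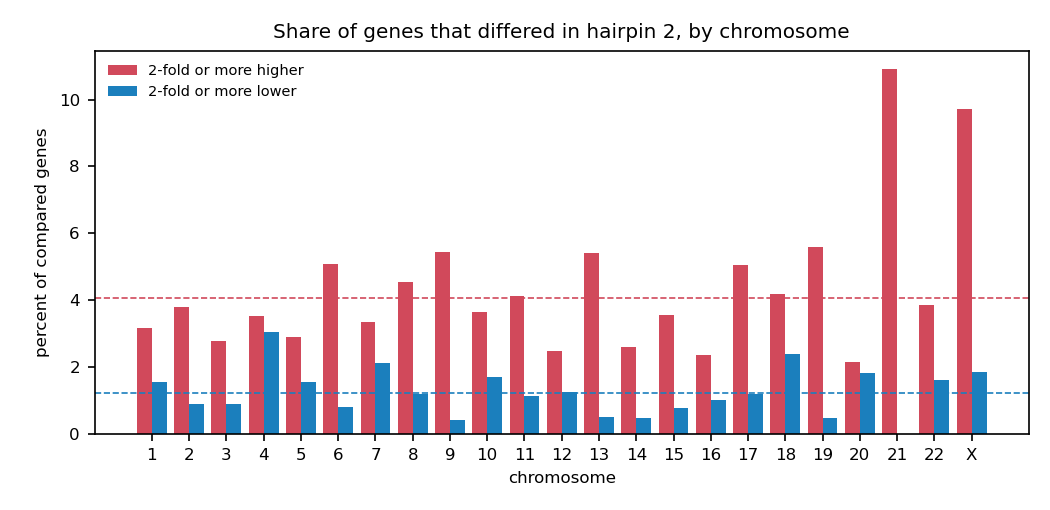
Bars give the percent of compared genes on each chromosome that were 2-fold or more higher (red) or lower (blue) in hairpin 2, and dashed lines give the shares over all chromosomes, 4.05% and 1.23%. Chromosomes 21 (10.9%) and X (9.72%) have the tallest red bars.

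Counted over all control levels, the m6A peaks of TE-10 with normal METTL3 were less frequent in the higher genes, but not within every level. Of the 15940 peaks, 10694 lay in exons or UTRs, and a gene was counted where it had at least 1 of these. Such a peak was listed for 129 of 497 higher genes (26.0%), 73 of 149 lower genes (49.0%) and 5446 of 11635 others (46.8%). By control level, the shares with a peak were 14.8% of 271 higher genes and 35.6% of 444 others up to 1, and 36.9% of 130 higher genes and 51.2% of 3173 others over 1 to 5. Among genes over 5 to 20 in the control, 32 of 59 higher genes (54.2%), 24 of 50 lower genes (48.0%) and 52.6% of the others had one. Among genes over 20 to 100 the shares were 24.0% of 25 higher, 64.9% of 37 lower and 43.4% of the others. Over 100 they were 25% of 12 higher, 60% of 5 lower and 20.7% of 879 others. The share of compared genes with a peak itself varied with control level, at 27.9% up to 1 and 52.6% over 5 to 20. Most higher genes were in the lowest level, so the total of 26.0% mixes level and direction. Of the 29 genes seen in hairpin 2 alone, EN2 had 2 such peaks, LINGO1 had 1 and 27 had none. These 29 were picked at under 0.5 in the control, where few peaks could be seen, so their m6A cannot be read from this count.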

How the data were processed

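The expression table holds, for 18249 genes, a signal per gene in 3 RNA-seq libraries as the authors deposited it, and no source used here states its unit. TopHat2, HTSeq and hg38 are named for the RNA-seq, and MACS2 as well for the m6A libraries, per the submitters' processing notes. Their versions are not stated in these sources. The table has no counts, so depth is unknown and no counting interval was given. The deposited peak list gives positions and location classes without scores, and peaks were matched to genes by symbol.

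A pseudocount of 1, a minimum value of 1 in either hairpin library and a 2-fold threshold were used, with 1 library a side and no test. The calculation was tested on simulated data. Symbols were matched to RefSeq, 17276 by current and 577 by older names, 371 were not matched, and 25 rows whose symbol is a date were left unnamed. RefSeq GRCh38.p14 gave gene order, chromosomes and start regions.

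The members and lists were chosen with earlier results of these data known. The genes named are the given markers, the writer complex, the 12 largest differences each way, the genes in hairpin 2 alone, the 2 highest and 3 most different members of each list (all members where 12 or fewer were compared) and measured genes within 3 places of the markers. Genes at the edge of the threshold and the ends of gene runs are also named; any other is said to have been chosen after its values were seen. Some genes that the rule names are not reported here. Other pseudocounts, filters, scalings and thresholds were tried. Python 3.11.15, numpy 2.4.6, pandas 2.3.3 and matplotlib 3.10.9 were used.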

Additional observations from a re-analysis of the deposited data

How the results depend on the processing

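No paired analysis was possible because each condition has 1 library, and no library could be left out for the same reason. With a pseudocount of 0.1 in place of 1, 790 genes were 2-fold higher and 277 lower in hairpin 2, and with 5 these were 128 and 42. Over genes at 5 or more in either hairpin library 228 were higher and 108 lower, and at 4-fold 91 and 9. Genes in hairpin 2 alone numbered 9 at a value of 10 or more and 12 where the others had to be under 0.1. Median-of-ratios scaling gave 491 and 150, equal sums 473 and 154. Medians changed sign over genes at 5 or more for Wnt (-0.05), ZNF (-0.05) and SERPIN genes (0.19), and with quantile scaling for Wnt (-0.10), ZNF (-0.10) and heat shock genes (0.05). Of 274 named genes, 53 crossed 2-fold with a pseudocount of 5, so calls among low values depend on it.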

Other observations

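Metabolic and stress lists of hairpin 2 against hairpin 1 held few genes past 2-fold. Among 39 glycolysis and hypoxia genes, 34 were lower at any size and 1 by 2-fold, with a median of -0.27. The 1 was SLC2A3, a glucose transporter, at 4.63 in the control, 5.03 in hairpin 1 and 1.4 in hairpin 2. GAPDH was at 6857.04, 6867.12 and 5782.87. Of 37 proteasome subunits 28 were lower, 0 by 2-fold, with a median of -0.22. Cholesterol and fatty acid genes had a median of 0.16, and of -0.31 for hairpin 1 minus control. PMVK, a mevalonate pathway kinase, was at 24.38, 23.81 and 10.54.

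Genes of the amino acid response driven by ATF4 had a median of -0.22, after 0.47 for hairpin 1 minus control. SLC7A5, an amino acid transporter, was at 154.26 in the control, 282.61 in hairpin 1 and 168.58 in hairpin 2, while ATF4 itself was at 397.79, 546.9 and 737.4. ATF3, a stress-induced factor, was at 0.65, 1.05 and 6.05. Among TGF-beta and BMP genes 4 of 38 were 2-fold higher and 0 lower, ID2, an inhibitor of basic helix-loop-helix factors, being at 8.85, 13.29 and 51.11. In the stem and oncofetal list, ZIC2 and ZIC5, zinc finger factors of the neural plate, were at 1.67, 2.31 and 13.84 and at 0.62, 0.59 and 4.18, and ALDH1A1, a retinal dehydrogenase, at 9.31, 21.18 and 6.43. HSPD1, a mitochondrial chaperone, was at 143.39, 98.63 and 212.69, and CRYAB, a small heat shock protein, at 17.71, 37.61 and 13.53. The genes of these paragraphs past 2-fold were chosen after their values were seen where they are not among the most different of a list.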
